A study of Sus scrofa with 23 samples.

Results

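MYL3, RENBP, SH3YL1 and WNT6 are 4 pig genes that were nearly silent from the oocyte to the morula and expressed in the blastocysts of all 3 groups of embryos studied. They were chosen by their measured values, as the genes with an FPKM value (fragments per kilobase, corrected for sequencing depth) over 5 in either part of the blastocyst and under 1 at every other stage, in each of the 3 groups. The 4 genes are all that pass among the 8603 genes of the table, which is 0.0465%. Their low level before the blastocyst and their presence in it are therefore the rule itself and are given here as a description. No difference between the parts of the blastocyst or between cloned and fertilized embryos was a criterion, but the rule took the higher of the parts, so the levels compared below entered it. In IV-D, SH3YL1 and WNT6 passed through the part named TE alone, and so did WNT6 in NT-LW.

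The table holds 23 libraries of polyA RNA, 1 per condition, from pools of morphologically normal oocytes or embryos. NT-LW and NT-D are clones, made by somatic cell nuclear transfer from the ear fibroblasts of 1 Laiwu boar and 1 Duroc boar, both 1-year-old. The recipients were enucleated oocytes of hybrid sows that had been matured in vitro, and the cloned embryos were cultured in vitro in low oxygen. IV-D embryos were Duroc, conceived by artificial insemination in Duroc sows and flushed from the uterus, and the boar that gave the NT-D cells sired them all. The IV-D group has 8 libraries, from MII oocyte to blastocyst, and so has NT-D, whose oocyte library holds the in vitro matured recipient oocytes and is used here as the oocyte stage for NT-LW too. NT-LW has 7 libraries, from the 1-cell stage. Each clone group thus rests on 1 donor cell line, and the way an embryo was made, the origin of its oocyte and its culture change together between the clones and IV-D and cannot be told apart. Blastocysts had been cut by hand under a stereomicroscope into a part named IT, which keeps the inner cell mass together with trophectoderm, and a part named TE, which is trophectoderm alone.

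The blastocyst is the first embryo with separate lineages. Its outer epithelium, the trophectoderm, builds the embryonic side of the placenta, while the inner cell mass forms the embryo itself and the hypoblast. WNT6 encodes a secreted, lipid-modified Wnt ligand, of the family that binds Frizzled receptors on neighbouring cells and can stabilise beta-catenin. SH3YL1 encodes an adaptor with an SH3 domain and a lipid-binding SYLF domain that associates with phosphoinositides at membranes. RENBP encodes N-acylglucosamine 2-epimerase, also called renin-binding protein, which interconverts N-acetylglucosamine and N-acetylmannosamine, the latter being the precursor of sialic acid. MYL3 encodes an essential light chain of myosin that is best known from the heart ventricle and slow skeletal muscle.

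In the RefSeq annotation of Sscrofa11.1, the build the reads were aligned to, the 4 genes lie on 4 chromosomes. MYL3 (ENSSSCG00000011325) is at chr13:29730271-29735616 on the minus strand, RENBP (ENSSSCG00000012792) at chrX:124662957-124670522 on the minus strand, SH3YL1 (ENSSSCG00000023273) at chr3:132684836-132731003 on the plus strand and WNT6 (ENSSSCG00000036932) at chr15:120901471-120917359 on the plus strand. No other annotated gene overlaps any of them, which matters because the library kit does not mark strand. The bases before each start are shown because the 4 genes come on together. They are read from the genome sequence in the direction of the gene, with 250 bases for MYL3 (chr13:29735617-29735866) and WNT6 (chr15:120901221-120901470). For SH3YL1 only 42 bases exist (chr3:132684794-132684835) before the divergent gene ACP1 begins, and no window is shown for RENBP, whose annotated 5′ end is incomplete. Capitals mark matches to the 7 motifs named after the sequences.
MYL3: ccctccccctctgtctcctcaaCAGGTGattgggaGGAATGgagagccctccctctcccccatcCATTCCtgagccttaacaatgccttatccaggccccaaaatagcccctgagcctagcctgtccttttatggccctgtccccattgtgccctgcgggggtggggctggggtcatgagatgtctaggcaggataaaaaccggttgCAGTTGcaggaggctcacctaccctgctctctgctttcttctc
SH3YL1: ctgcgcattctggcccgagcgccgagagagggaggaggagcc
WNT6: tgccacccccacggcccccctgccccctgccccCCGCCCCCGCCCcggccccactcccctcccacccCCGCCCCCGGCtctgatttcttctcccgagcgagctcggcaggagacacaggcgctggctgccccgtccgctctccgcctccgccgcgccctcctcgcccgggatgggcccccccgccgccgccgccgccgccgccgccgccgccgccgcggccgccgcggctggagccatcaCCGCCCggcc

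The motifs were searched on both strands of the 250 bases before 19340 protein-coding genes, including the 208 bases of the SH3YL1 window that lie in ACP1. The MYL3 window holds 2 matches to GGAATG, the core recognised by TEAD factors, which occurs in 10.3% of all windows, and 2 to the E box CANNTG, which occurs in 61.9%. WNT6 has 4 matches to the GC box GGGCGG, present in 46% of windows, and 1 to GCCNNNGGC of the TFAP2 factors, present in 22%, which overlaps one of the GC boxes. The SH3YL1 window has 1 E box, in the bases shared with ACP1 that are not printed. AGATAA of the GATA factors (8.05% of windows), TGANTCA of AP-1 (5.26%) and TATAAA of the TATA box (9.71%) are in none of the 3 windows. The 3 windows differ in composition. GC content is 57.6% for MYL3, which is the median of all windows, 68.4% for SH3YL1 and 83.6% for WNT6, above 98.1% of windows, and there are 2, 33 and 36 CpG dinucleotides. These are matches of letters, and no binding was measured.

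Depth was 14952784 to 22991067 fragments per library, with a median of 18896560, recovered from the steps between FPKM values. With 1 library per condition there is no replicate error and no test between conditions. Ratios are therefore given with the exact 95% interval of their fragment numbers, which covers counting error only and is too narrow for amplified reads without molecular identifiers, and says nothing about the spread between pools of embryos. A gene was called higher or lower by a fold rule, a difference in log2(FPKM + 1) of over 1 together with an FPKM value of 1 or more in at least 1 of the libraries compared. In RNA from pools, fewer cells of a type and less RNA per cell cannot be told apart.

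The IV-D IT library stands apart from the other blastocyst libraries. Its values correlated more with those of the IV-D morula than with those of the IV-D TE library. Pearson's r of log2(FPKM + 1) was 0.956 and 0.914 across the 8603 genes. In NT-LW, r was 0.979 for IT and TE and 0.901 for IT and morula, and in NT-D 0.982 and 0.868. Genes are not independent replicates, so these values are descriptions. The markers of the labelled parts were checked too. NANOG, a defining gene of the inner cell mass, had FPKM values of 9.80 in IV-D IT, 5.00 in NT-D IT and 3.76 in NT-LW IT, and it was at 0 in all 3 TE libraries. The 3 inner cell mass genes in the table (NANOG, KLF17 and GDF3, of 10 listed) summed to 32.3 in IV-D IT and 2.05 in IV-D TE, but to 12.9 and 12.4 in NT-LW and 17.2 and 15.2 in NT-D. SOX2 and POU5F1 were not analysed here. Trophectoderm genes (GATA2, GATA3, TFAP2C, TEAD4, KRT8, KRT18 and DAB2, 7 of 13 listed) summed to between 1261 and 2922 in the 6 libraries, and to 1424 in IV-D IT against 1348 in IV-D TE. Most of each sum is KRT8 and KRT18, at 626 and 627 in IV-D IT and 549 and 582 in IV-D TE. Of the 7 genes, 1 was called higher in IV-D TE and 0 lower. The gene called was GATA3, at 5.42 in IT and 14.0 in TE. At IT, GATA3 was called higher and TEAD4 lower in both clone groups than in IV-D. The sum of the inner cell mass markers thus differs between the IV-D parts much more than between the cloned parts. Its members went different ways in the clones, where NANOG was called lower in TE of both groups and the others were not called. KLF17 was at 2.45 in IT and 3.30 in TE of NT-LW, and 2.56 and 1.18 in NT-D. GDF3 was at 6.73 and 9.08 in NT-LW, and 9.68 and 14.0 in NT-D. All 3 IT libraries carry keratin and other trophectoderm transcripts. Whether the IV-D IT library is a mixed or mislabelled pool was not tested, and every comparison of the IV-D parts, or of clones and IV-D at IT, rests on its label.

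MYL3 was the most abundant of the 4 genes in 5 of the 6 blastocyst libraries by FPKM value. It was at 0 fragments in 13 of the 17 earlier libraries. The others were the 4-cell libraries of NT-LW and NT-D, with 1 fragment each, the NT-D morula, with 3 fragments, and the IV-D morula, with 10 fragments or an FPKM value of 0.803. In the blastocyst, its FPKM values were 29.4 in IT and 43.9 in TE of NT-LW, 33.4 and 57.5 in NT-D, and 7.33 and 63.5 in IV-D. IV-D IT was thus the lowest of the 6 libraries, by 4.02 times (3.16–5.15) below the next one, and IV-D TE the highest, although it and NT-D TE differed by no more than counting error (ratio 1.10, 0.979–1.25). The IT parts of NT-D and NT-LW did not differ beyond counting error either (1.13, 0.984–1.31).

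RENBP had a few fragments at most stages. It was at 0 in 5 of 17 earlier libraries and reached 23 fragments in the NT-LW morula, 16 in that of NT-D and 18 in that of IV-D, or FPKM values of 0.858, 0.557 and 0.562. All 3 groups had their highest value before the blastocyst in the morula. Blastocyst FPKM values were 14.6 in IT and 16.0 in TE of NT-LW, 24.3 and 30.7 in NT-D, and 16.5 and 44.0 in IV-D. RENBP is the gene whose IV-D IT value was within the range of the clones rather than below it, and it had the smallest spread of the 4 over the 6 libraries, 3.01-fold against 8.66-fold for MYL3, 13.0-fold for SH3YL1 and 15.2-fold for WNT6. IV-D IT and NT-LW TE, next to each other in the order of its levels, did not differ beyond counting error (1.03, 0.903–1.18), nor did TE and IT of NT-LW.

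SH3YL1 had 145 fragments in the earlier libraries beside 1800 in the blastocyst. It was at 0 in only the NT-D 1-cell embryos and the NT-LW morula, and its highest earlier FPKM values were 0.615 in the NT-D morula and 0.546 in NT-LW 8-cell embryos. In the blastocyst it had 5.15 in IT and 5.08 in TE of NT-LW, 9.48 and 9.42 in NT-D, and 1.20 and 15.5 in IV-D. The parts of each clone group thus differed by no more than counting error, while the highest and the lowest of the 6 libraries were the parts of the IV-D blastocyst.

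WNT6 was at 0 in 12 of 17 earlier libraries. Outside the morula it had 3 fragments in IV-D and 1 in NT-LW 4-cell embryos, and the 3 morulae had 11 fragments (NT-LW), 14 (NT-D) and 10 (IV-D), or FPKM values of 0.347, 0.412 and 0.264. The morula was its highest earlier stage in every group. Its blastocyst values were 4.08 in IT and 7.30 in TE of NT-LW, 7.92 and 13.9 in NT-D, and 0.917 and 11.1 in IV-D. WNT6 differs from the other 3 genes in that the highest library was NT-D TE and not IV-D TE, by 1.25 times (1.08–1.46).

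**Figure D1:**
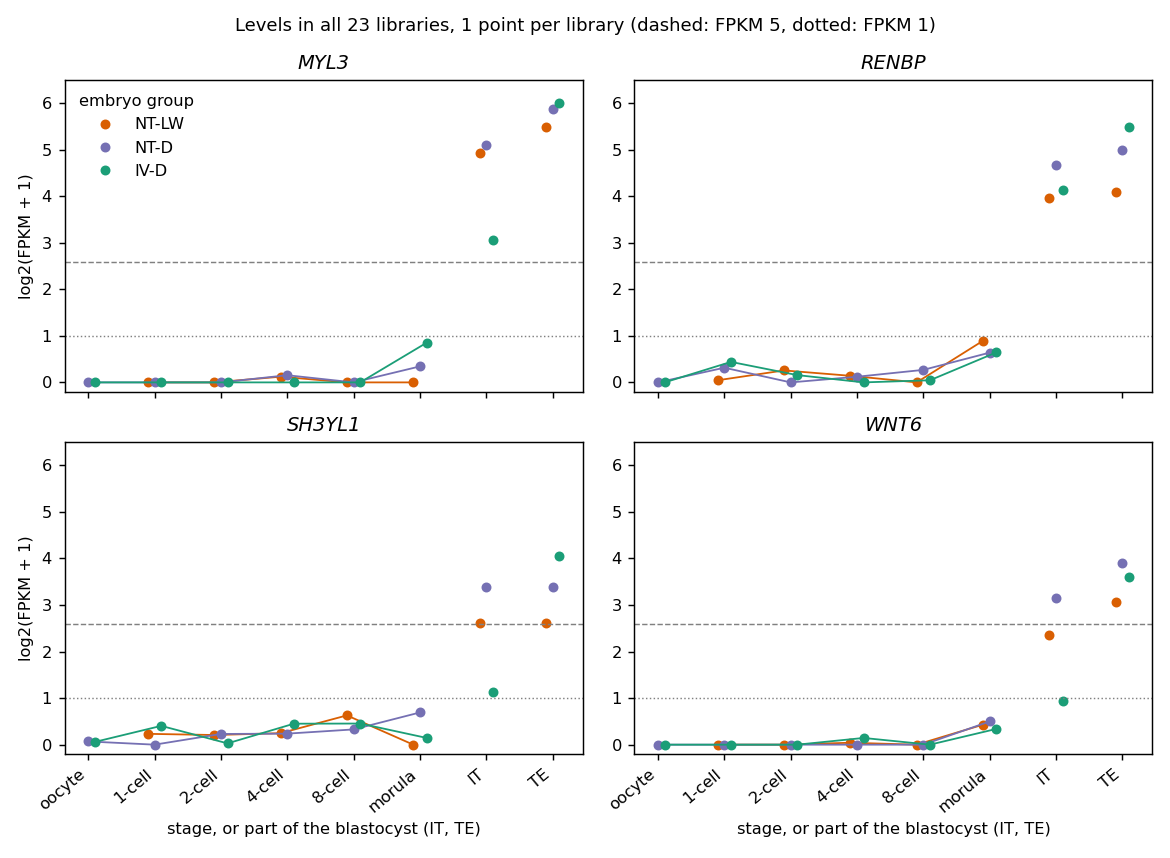
Level of each gene as log2(FPKM + 1) at each stage, with 1 point per library coloured by embryo group and lines joining the stages before the blastocyst. All 17 earlier libraries lie under the dotted line at an FPKM value of 1, and the blastocyst points of IV-D spread furthest between IT and TE.

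The 4 genes were close to the limits of the rule in different places. SH3YL1 passed by 0.04 on the log2 scale, through the FPKM value of 5.15 in NT-LW IT against the limit of 5, RENBP by 0.22 through the NT-LW morula, MYL3 by 0.32 through the IV-D morula and WNT6 by 0.55 through NT-LW TE. Just outside were AS3MT, an arsenic methyltransferase, with an FPKM value of 4.96 in NT-LW IT and a margin of -0.01, and NECAB3, a calcium-binding protein, with 4.91 in NT-D TE and -0.03. MAB21L3 had a margin of -0.25, CALHM5 of -0.38 and GDF15, a secreted factor of the TGF-beta superfamily, of -0.46. The number of genes that pass is set by where the limits lie.

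The parts of the IV-D blastocyst differed in all 4 genes. TE exceeded IT by 13.0 times for SH3YL1 (9.74–17.6), 12.1 times for WNT6 (8.40–18.0), 8.66 times for MYL3 (6.88–11.0) and 2.66 times for RENBP (2.39–2.97). On the scale of log2(FPKM + 1) the differences were 2.91, 2.66, 2.95 and 1.36. All 4 genes were called higher in TE, where 9.83% of 7093 genes tested were called so and 18% were called lower. WNT6 entered the test only through TE, since its IT value was under 1, and SH3YL1 and WNT6 are members only through the same TE library.

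In the clones none of the 4 genes was called. TE over IT was 1.49 (1.30–1.71) in NT-LW and 1.72 (1.51–1.96) in NT-D for MYL3, and 1.79 (1.45–2.20) and 1.76 (1.51–2.05) for WNT6. These ratios lie above 1 beyond counting error, in the same direction as in IV-D. For WNT6 in NT-LW a ratio above 1 follows from the rule, since the gene passed there through TE alone. RENBP had 1.10 (0.960–1.25) in NT-LW and 1.26 (1.14–1.40) in NT-D. For SH3YL1 the ratios were 0.987 (0.815–1.19) and 0.993 (0.859–1.15). Neither is called, and the sign turns with the scaling: under median-ratio scaling TE minus IT of SH3YL1 was 0.24 in NT-LW and 0.05 in NT-D on the log2(FPKM + 1) scale, in place of -0.02 and -0.01. The background for 0 of 4 genes called is low in the clones, since TE was called higher for 1.18% of 6801 genes in NT-LW and 0.385% of 6757 genes in NT-D, and lower for 5.07% and 4.32%. The split for NT-LW depends on the scaling, with 18.8% of called genes higher in TE as deposited and 51.3% under median-ratio scaling, which moved the median of all genes by 0.25, but none of the 4 genes was called under either. These counts of called genes depend on the pseudocount, with 425 genes called in NT-LW and 318 in NT-D, and 767 and 559 with a pseudocount of 0.1, again with none of the 4.

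**Figure D2:**
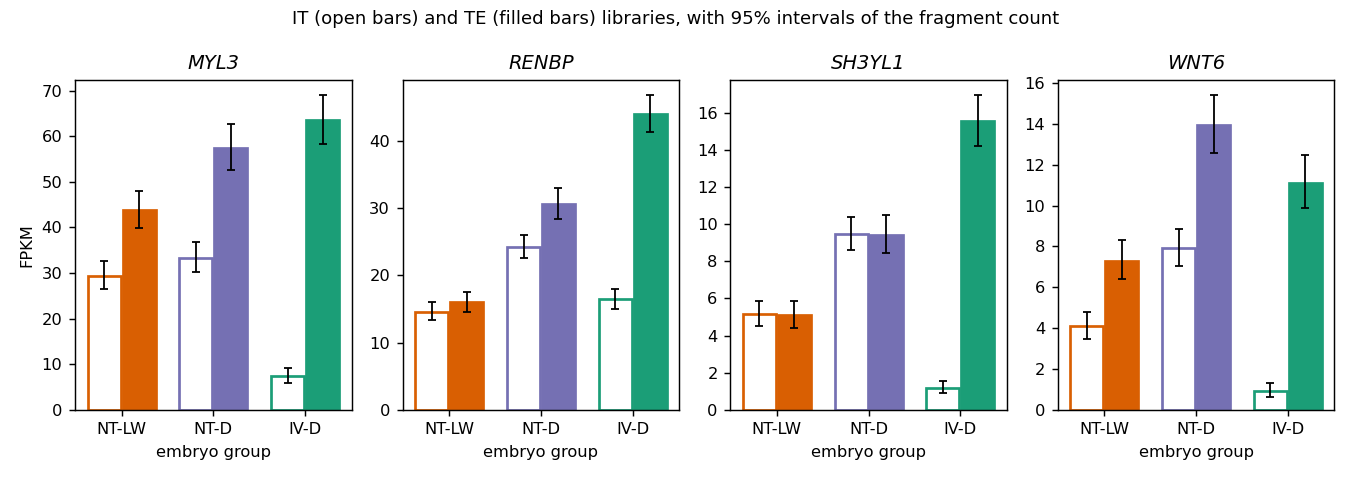
FPKM values of the 4 genes in IT (open bars) and TE (filled bars) of each embryo group, with 1 library per bar and the exact 95% interval of its fragment number as error bars. For MYL3, SH3YL1 and WNT6 the open IV-D bar is the lowest of the 6, and for SH3YL1 the bars of each clone group are level.

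The difference between the groups in TE over IT was large for SH3YL1, whose ratio in IV-D was 13.1 times that in either clone group (9.35–18.5 against NT-LW and 9.50–18.0 against NT-D). It was 6.78 (4.47–10.3) and 6.89 (4.65–10.2) for WNT6, 5.81 (4.45–7.59) and 5.03 (3.87–6.54) for MYL3, and 2.43 (2.05–2.88) and 2.11 (1.82–2.45) for RENBP. On the log2(FPKM + 1) scale, TE minus IT was larger in IV-D than in both clone groups by more than 1 for all 4 genes, as it was for 8.21% of 7280 genes. Both clone ratios are set against the same pair of IV-D libraries, and every one of these values rests on the IV-D IT library that stands apart. Without that library no comparison of the parts exists for IV-D, while the rule that chose the genes still passes the same 4 genes on the TE libraries alone.

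**Figure D3:**
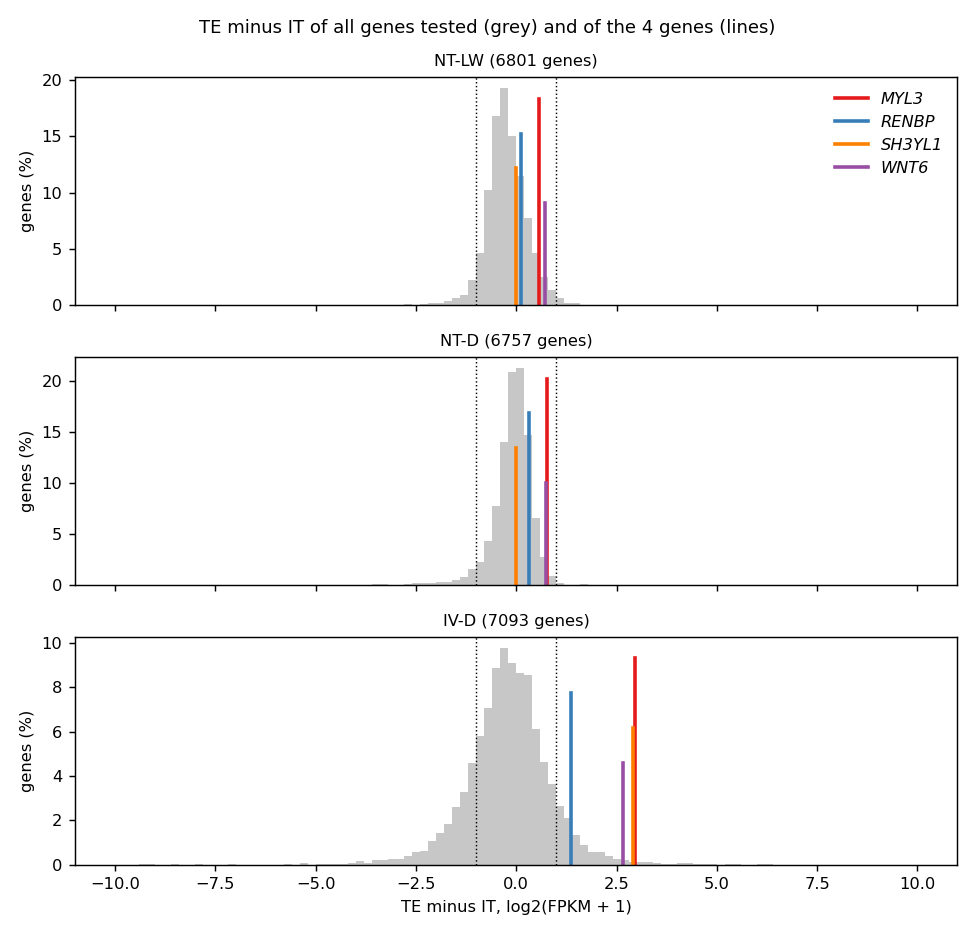
TE minus IT on the scale of log2(FPKM + 1) for all genes tested in each embryo group, in grey as a share of genes, with the 4 genes as coloured lines and the limits of the fold rule dotted. The 4 lines lie at or above 1.36 in IV-D and at or below 0.77 in the clones.

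The other blastocyst-specific genes of each group were counted between TE and IT by the fold rule, as a description. By the same limits 39 genes were blastocyst-specific in IV-D, 46 in NT-LW and 23 in NT-D, each count including the 4. Of the 35 others of IV-D, 29 were called higher in IV-D TE and 2 in IV-D IT, but in the NT-LW libraries 2 were higher in TE and 3 in IT, and in the NT-D libraries 1 and 2. The 42 others of NT-LW divided into 21 higher in TE and 7 in IT in the IV-D libraries, and into 6 and 9 in their own. For the 19 others of NT-D the counts were 10 and 3 in IV-D, and 2 and 4 in their own. Of the 35 others of IV-D, 32 were tested in the libraries of each clone group. Over all genes tested, TE was called higher for 9.83% in IV-D, 1.18% in NT-LW and 0.385% in NT-D. It was called lower for 18%, 5.07% and 4.32%, so few calls in the clones are not particular to these sets. Since the rule took the higher of the parts, a gene can pass through TE alone, and the IV-D set was chosen on the IV-D values it is counted in. Its larger number of calls in the IV-D libraries is thus no separate support for the contrast seen in the 4 genes.

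**Figure D4:**
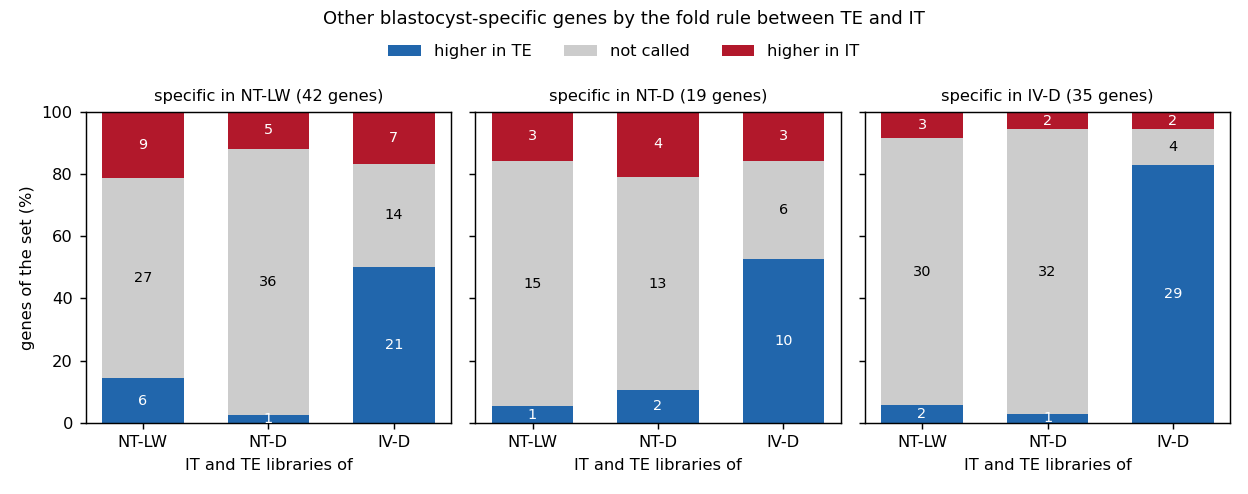
Genes that are blastocyst-specific in each embryo group, without the 4 genes, by their call between TE and IT in the libraries of each group, as a share of the set with the number of genes in each bar. Genes with FPKM values under 1 in both parts count as not called. In the IV-D libraries more genes of each set were higher in TE than in IT (29, 21 and 10 against 2, 7 and 3). Over all genes tested, the shares higher and lower in TE were 9.83% and 18% in IV-D, 1.18% and 5.07% in NT-LW, and 0.385% and 4.32% in NT-D.

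Clones and IV-D embryos were compared part by part. In IT 3 of the 4 genes were called higher in both clone groups, WNT6 among them, which entered both comparisons only through the clone libraries because its IV-D IT value was under 1. MYL3 was higher than IV-D by 4.02 times (3.16–5.15) in NT-LW and 4.56 times (3.60–5.83) in NT-D, SH3YL1 by 4.30 (3.18–5.92) and 7.92 (5.94–10.8), and WNT6 by 4.45 (3.03–6.73) and 8.64 (5.99–12.9). Among all genes, 8.7% of 7093 were called higher in NT-LW and 9.47% of 7095 in NT-D, and 13.7% and 15.4% were called lower. RENBP was not called, at 0.885 times the IV-D value in NT-LW (0.779–1.01) and 1.47 times in NT-D (1.31–1.65). All these ratios again share the IV-D IT library.

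The comparison at TE does not use that library. It is not free of the choice of genes, since SH3YL1 and WNT6 passed the rule in IV-D through TE alone. Their IV-D TE values had to be over the limit, so their ratios to IV-D at TE are descriptions. At TE, SH3YL1 of NT-LW was below IV-D instead of above it, and RENBP of NT-LW, uncalled at IT, was called lower. SH3YL1 was at 0.327 times (0.277–0.386) and RENBP at 0.364 times (0.325–0.408) the IV-D value, and both were called lower, as were 10.2% of 6755 genes, with 6.26% called higher. Of the genes called there 38.0% were higher in NT-LW as deposited and 54.3% under median-ratio scaling, and both calls held. MYL3 and WNT6 were at 0.691 (0.610–0.784) and 0.657 (0.551–0.783) and were not called. NT-D had no call among the 4 genes, with 0.607 (0.527–0.698) for SH3YL1, 0.697 (0.633–0.768) for RENBP and 0.906 (0.803–1.02) for MYL3, where 4.23% of 6667 genes were called lower and 3.13% higher. WNT6 was at 1.25 times (1.08–1.46) the IV-D value there, the one value of the 8 above 1.

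**Figure D5:**
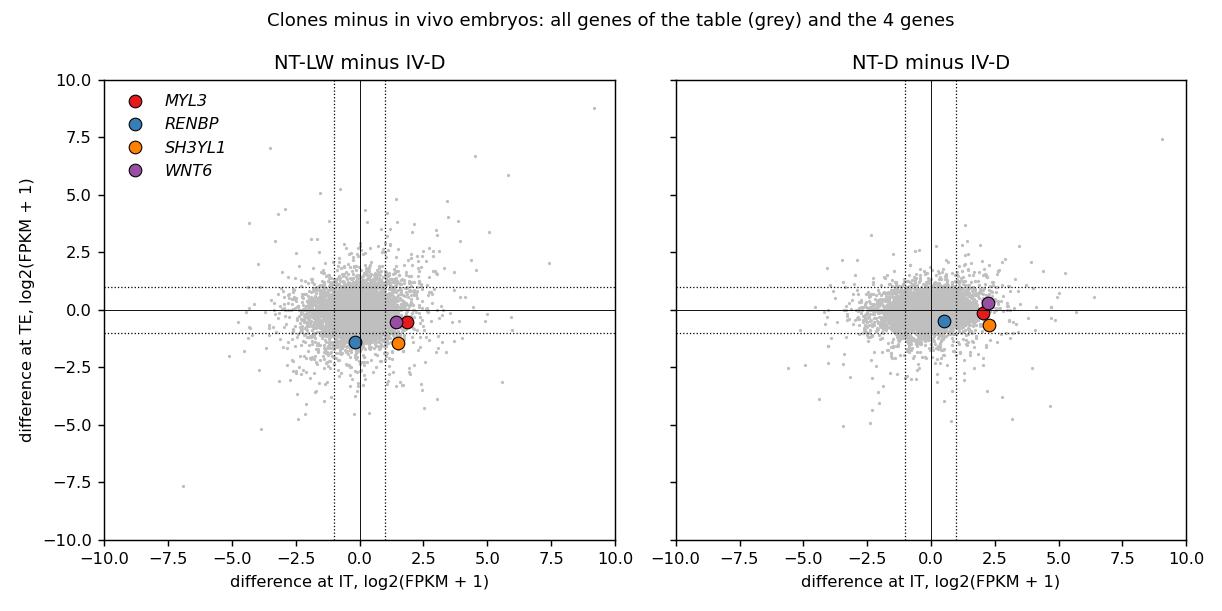
Clones minus IV-D on the scale of log2(FPKM + 1), at IT on the horizontal axis and at TE on the vertical axis, for all genes of the table (grey points) and the 4 genes (coloured points), with the limits of the fold rule dotted. MYL3, SH3YL1 and WNT6 lie to the right of 1 in both panels, and RENBP and SH3YL1 lie below -1 at TE for NT-LW.

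Between the clone groups, NT-LW was below NT-D for each of the 4 genes in both parts. The ratios of NT-LW to NT-D were 0.523 in TE and 0.602 in IT for RENBP, 0.540 and 0.543 for SH3YL1, and 0.524 and 0.516 for WNT6, all of them below 1 beyond counting error. MYL3 had 0.763 (0.672–0.867) in TE and 0.882 (0.765–1.02) in IT. None of these differences passed the fold rule, which called 6.84% of genes lower in NT-LW at TE and 2.7% at IT. Breed, donor animal and donor cell line change together between the groups and cannot be told apart.

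RENBP lies on the X chromosome, and the cloned embryos were all male, whereas the IV-D embryos were not sexed and each of their pools mixed males and females, per the study's text. At TE, where RENBP differed from IV-D by -1.40 in NT-LW and -0.51 in NT-D on the log2(FPKM + 1) scale, 31 of 187 X-linked genes tested were lower and 15 higher in NT-LW, with a median of -0.28 beside -0.16 for all genes. In NT-D 3 of 184 were lower and 10 higher, with a median of 0.04 beside -0.02. Over all genes tested at TE, 10.2% were lower and 6.26% higher in NT-LW, and 4.23% and 3.13% in NT-D. At IT, where RENBP differed by -0.16 and 0.53, 26 of 196 X-linked genes were lower and 28 higher in NT-LW, and 27 of 195 and 29 in NT-D. The shares over all genes at IT were 13.7% lower and 8.7% higher, and 15.4% and 9.47%. Embryo sex and the other differences between clones and IV-D cannot be told apart, and the part of sex in the RENBP values was not tested.

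Over the 23 libraries the 4 genes rose and fell together, as the rule requires, with pairwise r of log2(FPKM + 1) between 0.941 and 0.980. Over the 6 blastocyst libraries, r was 0.969 for MYL3 and WNT6, 0.924 for SH3YL1 and WNT6, 0.916 for MYL3 and SH3YL1, and 0.609 to 0.786 for RENBP with the others. RENBP therefore followed the other 3 genes least closely within the blastocyst. These libraries share embryo groups and the stage difference, so r is a description.

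The genes most like each of the 4 over the 23 libraries, by Pearson's r of log2(FPKM + 1), included the others of the 4 in several places. RARRES2, which encodes the secreted protein chemerin, was among the 5 nearest genes of all 4, with r of 0.987 for MYL3, 0.978 for SH3YL1 and WNT6 and 0.968 for RENBP. Its FPKM values were 27.5 in IT and 29.0 in TE of NT-LW, 33.5 and 37.1 in NT-D and 4.81 and 98.7 in IV-D, but 1.96 in the NT-D morula kept it out of the rule. MYL3 was further followed by the cytochrome P450 gene CYP2S1 (0.978) and by SLC66A3 (0.975). RENBP was followed by the exchange factor gene NGEF (0.972), the epithelial GTPase gene RAB25 (0.967) and the annexin gene ANXA6 (0.965), SH3YL1 by the glutathione transferase gene MGST1 (0.968), and both SH3YL1 and WNT6 by FOXRED2 (0.961 and 0.971). TPP1, a lysosomal peptidase gene, was also near WNT6 (0.970). The choice of nearest genes depends on the measure, with only 0 or 1 of the 5 kept for each gene by Spearman's rank correlation.

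Neighbouring genes on the chromosome had other patterns where the table held them. ACP1, which starts 42 bases from SH3YL1 in the opposite direction and encodes a low molecular weight phosphatase, had FPKM values of 48.0 to 365 in all 23 libraries. In the blastocyst it was at 159 to 219, with 171 in IV-D IT and 219 in IV-D TE. NAA10, an acetyltransferase gene 212 bases from RENBP, ranged from 0.305 to 77.3 and was at 44.5 to 61.6 in the blastocyst. The neighbours of MYL3 and WNT6, among them WNT10A, were not analysed here.

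The Wnt pathway around WNT6 was examined by role, from lists written from general knowledge, and genes named only because a count was small were picked after their values were seen. The background for this and the following lists in IV-D is 9.83% of 7093 genes tested called higher in TE and 18% called lower. Of 19 ligand genes the table held WNT6 and WNT3, and WNT3 had at most 0.188 in the blastocyst libraries, so no comparison of it could be tested. Among the genes that let a cell secrete a Wnt, PORCN, the acyltransferase that lipidates Wnt proteins, went opposite to WNT6. It had FPKM values of 23.5 in IV-D IT and 0.0674 in IV-D TE, at most 0.375 in the clone parts, and 77.3 in the IV-D morula, and it was called lower in IV-D TE than IT and in IT of both clone groups than in IV-D. WLS, the carrier that brings Wnt proteins to the cell surface, had 5.01 in IV-D IT and 13.5 in IV-D TE and was called higher in TE.

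Of 7 receptor and receptor-turnover genes in the table (of 20), 6 were tested in IV-D. FZD4 (1.12 in IT and 3.39 in TE) and LGR4 (0.911 and 4.41) were called higher in TE, and FZD3 (11.7 and 0.716) was called lower. RYK, a Wnt co-receptor, was at 4.80 and 5.75 and was not called. Of the 4 antagonist genes (of 13: DKK1, DKK4, FRZB and WIF1), DKK1 was tested in IV-D and was lower in TE, at 0 against 1.98, and it was also at 0 in NT-LW TE against 3.33 in IT. Of 13 genes of signal transduction and targets (of 20), 1 was called higher in IV-D TE, the kinase gene GSK3B, and 3 lower, BTRC, AXIN2 and MYC, with 6 tested genes not called. CTNNB1, which encodes beta-catenin, was at 30.0 in IV-D IT and 28.2 in IV-D TE and was not called, and neither was CSNK1A1, at 18.6 and 25.2. BTRC was at 40.2 and 10.8, MYC at 14.0 and 3.94, and AXIN2, a transcriptional target of the pathway, at 4.23 and 0.326. The median difference of the 10 tested genes was -0.45 beside -0.19 for all genes tested.

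Around RENBP, 16 of 22 listed genes of amino sugar and sialic acid metabolism were in the table, and 13 of the 15 others were tested in IV-D. NAGK, which phosphorylates N-acetylglucosamine, the deaminase gene GNPDA1, UAP1 and NPL were called higher in TE, the sialidase gene NEU1 lower, and 8 were not called, with a median over the 13 of 0.51 beside -0.19 for all genes tested. GNPDA1 had 20.9 in IT and 70.3 in TE of IV-D. NANS and PGM3, the most abundant genes of the list, had 154 and 147, and 137 and 96.8, and were not called. NPL, the sialic acid lyase gene, singled out after its values were seen, had 0.298 in IT and 19.8 in TE of IV-D, 11.1 and 13.6 in NT-D, and 0.147 and 0.550 in NT-LW. No gene of this list was called between TE and IT of either clone group. Over all genes, TE was called higher for 1.18% and lower for 5.07% in NT-LW, and for 0.385% and 4.32% in NT-D. At TE, GFPT1 and NEU1 were higher and GNPDA2 and NPL lower in NT-LW than in IV-D, and 0 of 13 were called in NT-D. The shares over all genes at TE were 6.26% higher and 10.2% lower in NT-LW, and 3.13% and 4.23% in NT-D.

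Around MYL3, 4 of 13 myosin light chain genes were in the table, and the other 3 encode light chains that non-muscle or smooth muscle cells use. MYL6 was at 19.9 in IT and 59.3 in TE of IV-D and MYL12A at 604 and 1338, both called higher in TE, while MYL9 was at 77.0 and 73.5. All 3 were called lower in NT-LW than in IV-D at TE, at 24.9, 571 and 16.4, and none in NT-D, at 37.7, 1064 and 133. Over all genes at TE, 10.2% were called lower and 6.26% higher in NT-LW, and 4.23% and 3.13% in NT-D. The myosin heavy chain and light chain kinase list (17 genes) had 3 in the table, MYH8, MYH9 and MYH11, all under 5 in the blastocyst and none called in the comparisons of the parts or of clones and IV-D. Of 9 other sarcomere and muscle genes (of 26), 5 of 7 tested were called higher in IV-D TE (ACTA1, TNNC1, TNNC2, TPM2 and TPM4) and 1 lower (TNNT1), with a median over the 7 of 1.34 beside -0.19 for all genes tested. ACTA1, the skeletal muscle actin gene, had 3.91 and 22.5 in IV-D, and it was the 1 gene of this list called higher in TE of NT-LW (4.52 and 14.8) and of NT-D (16.4 and 55.0). Called lower in TE were TNNT1 in NT-LW (1.34 and 0.0430), and TPM2 (10.5 and 0.125) and ACTA2 (1.48 and 0) in NT-D, so the clones had 1 gene higher and 1 lower, and 1 higher and 2 lower, of 7 tested. Over all genes, TE was called higher for 1.18% and lower for 5.07% in NT-LW, and for 0.385% and 4.32% in NT-D. Against IV-D at IT, 3 of 7 genes of this list were called higher in NT-LW and 6 of 8 in NT-D, with 0 lower. Over all genes, 8.7% and 9.47% were called higher there, and 13.7% and 15.4% lower. At TE, 1 of 6 was higher and 2 lower in NT-LW, and 1 of 6 higher and 0 lower in NT-D. TPM4, TPM1 and TNNC2 reached 70.9, 67.8 and 30.3 in their highest blastocyst library. Several genes of this list, the tropomyosin genes TPM1 and TPM4 among them, are also used by non-muscle cells.

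Around SH3YL1, 14 of 26 listed genes of phosphoinositide enzymes and known partners were in the table. In IV-D, INPP5D, PIK3CB and PIP5K1B were called higher in TE, PIK3R1 and PIP4K2A lower and 7 were not called, with a median over the 12 of 0.13 beside -0.19 for all genes tested. None was called between the parts in either clone group, nor between clones and IV-D at TE. Over all genes, TE was called higher for 1.18% and lower for 5.07% in NT-LW, and for 0.385% and 4.32% in NT-D. Against IV-D at TE, 6.26% were higher and 10.2% lower in NT-LW, and 3.13% and 4.23% in NT-D. PIP5K1B, a phosphatidylinositol phosphate kinase gene, was called higher in IT of both clone groups than in IV-D, where 8.7% and 9.47% of all genes were. RAC1, the most abundant, had FPKM values of 129 to 232 in the 6 libraries. PIP4K2A reached 22.8 and PIK3C3 25.8, both in IV-D IT.

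Markers of fibroblasts and cumulus cells were low in the blastocyst, whereas the blood marker HBB was not low in the IT libraries of the clones. The 5 fibroblast genes in the table (COL1A1, COL1A2, COL3A1, VIM and S100A4, of 10 listed) summed to 0.525 or less in the 6 blastocyst libraries, and to 5.62 and 7.85 in the NT-D and NT-LW morulae. HAS2, the 1 cumulus cell gene of 10 in the table, was at most 0.0892. PGR and HBB, the 2 genes of 10 for maternal endometrium and blood, summed to between 0.0478 and 21.6. Unlike IV-D, the cloned embryos were cultured in vitro and not flushed from a uterus, and the source of these transcripts was not tested. HBB, a beta-globin gene, had FPKM values of 21.3 in IT and 2.29 in TE of NT-LW, 10.9 and 0 in NT-D, and 1.80 and 0.0751 in IV-D. It was called lower in TE than IT in all 3 groups, and higher than IV-D in IT of both clone groups and in TE of NT-LW. It thus moved with MYL3, SH3YL1 and WNT6 between clones and IV-D at IT, but opposite to the 4 genes between the parts of IV-D, and its part in those results was not tested. The hypoblast genes (GATA4, GATA6, PDGFRA and NID2, of 9) summed to 50.1 in IT and 22.2 in TE of IV-D, 40.5 and 36.7 in NT-LW and 36.5 and 24.7 in NT-D. Of these, GATA6 and PDGFRA were tested in IV-D, and PDGFRA was called lower in TE (11.6 and 0.0614) while GATA6 was not called (37.7 and 21.4). The 3 inner cell mass genes were all called lower in IV-D TE, opposite to the 4 genes, and the part of these markers in the result was not tested.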

How the data were processed

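PolyA RNA of oocytes and embryos was amplified with SMART-Seq v4 and sequenced paired-end. Per the labels and the study's methods, the authors aligned the reads to Sscrofa11.1 with HISAT2 (2.0.4), counted them per Ensembl gene with HTSeq (0.9.1) and deposited FPKM values of 8603 genes in 23 libraries. The table is named for differentially expressed genes and how its genes were chosen is not given in the sources used here, so shares are shares of the table. Amplification before sequencing makes fragments of rare transcripts unequal copies of the original molecules.

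The 4 genes and all lists were chosen with earlier results of these data known. The steps between the FPKM values of a gene gave back whole fragment numbers for 100% of genes, off by a relative 1.13e-09 at most, and the method, tested on simulated data of 8603 genes, recovered 100%. Comparisons used log2(FPKM + 1), a limit of 1 and a minimum FPKM value of 1, and ratios of fragments carried exact conditional binomial 95% intervals. Each condition has 1 library, so conditions were compared without a test, and 1 added fit took the parts of the 3 groups as pairs (limma 3.58.1 in R 4.3.3, with a trend, on log2(FPKM + 1), Benjamini-Hochberg adjustment). Gene symbols were paired with Ensembl identifiers for 7371 genes, and positions and promoters came from RefSeq. Named besides the 4 genes are, of each list, up to 4 genes with the highest blastocyst FPKM values and all Wnt ligands and myosin light chains, the markers in the table, the 5 nearest genes of each by r, 5 genes just outside the rule, and chromosomal neighbours. Some listed markers are not reported here and were left out of the sums. Alternatives were another pseudocount, scaling, minimum value, rule limit, joining of IT and TE, interval call and measure of likeness. Python 3.11.15, NumPy 2.4.6, SciPy 1.17.1, pandas 2.3.3, matplotlib 3.10.9 and pysam 0.24.0 were used.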

Additional observations from a re-analysis of the deposited data

Results flagged for a closer look

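The differences of MYL3 and SH3YL1 from IV-D had opposite signs in the parts of the blastocyst, in both clone groups. On the log2(FPKM + 1) scale, MYL3 of NT-LW was 1.87 above IV-D at IT and at -0.52 at TE, and MYL3 of NT-D 2.05 above at IT and at -0.14 at TE. SH3YL1 of NT-LW was 1.49 above IV-D at IT and at -1.44 at TE, and SH3YL1 of NT-D 2.25 above and at -0.67. Both clone groups are set against the same IV-D libraries, and the direction at IT rests on the IV-D IT library. SH3YL1 passed the rule in IV-D through TE alone, so its IV-D TE value entered the choice of the gene. For MYL3 of NT-D at TE the counting interval of the ratio, 0.803 to 1.02, holds 1, so no difference in direction is shown there.

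SH3YL1 also had TE minus IT of 2.91 in IV-D, beside -0.0156 in NT-LW and -0.0087 in NT-D. With 1 library per condition these differences between groups were not tested. The counting intervals of both clone ratios hold 1, and the clone values turned positive under median-ratio scaling.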

How the results depend on the processing

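By the rule that chose them, 4 genes passed, and 2 with a limit of over 10 in the blastocyst (MYL3 and RENBP), 1 with under 0.5 at other stages (WNT6), 16 with under 2, 2 by the IT libraries alone (MYL3 and RENBP) and 2 with each library rescaled to a sum of 1000000 (WNT6 and MAB21L3). The TE libraries alone and the mean of the parts gave the same 4, and median-ratio scaling 6, with GDF15 and NECAB3. Where an interval of the ratio that leaves out 1 was taken as the call, 2 of the 4 genes were higher in TE than IT in NT-LW and 3 in NT-D, in place of 0, and 4 were lower than IV-D at TE in NT-LW and 2 in NT-D, in place of 2 and 0. None of the other alternatives changed these counts. The share of all genes with such an interval was not computed, so the counts by interval show nothing particular to the 4 genes. Of 28 log2 differences of the 4 genes, none changed its side of the limit under another pseudocount or scaling, while 2 uncalled ones changed sign under median-ratio scaling and 1 under rescaling to a sum, all of SH3YL1 between TE and IT of clones. Median-ratio scaling moved the median of all genes by 0.04 to 0.25. Of the 5 genes nearest to SH3YL1 and WNT6 by r, 0 remained among the nearest by Spearman's rank correlation, and 1 for MYL3 and RENBP, and the cause was not tested. With the 8-cell, morula and blastocyst libraries only, 2 remained for MYL3, 1 for RENBP, 3 for SH3YL1 and 2 for WNT6. With a pseudocount of 0.1, the numbers were 2, 3, 4 and 2. At this depth 100 fragments give about the precision of 1 in 10 by counting, and the earlier values of the 4 genes, at 26 fragments or fewer, are known less well. The number of all genes called moved by over 1.5 times between TE and IT of NT-LW, from 425 to 767 with a pseudocount of 0.1, 644 with each library rescaled to a sum and 280 with a minimum FPKM value of 5, and of NT-D, from 318 to 559 and, with that minimum, 180, and between NT-D and IV-D at TE from 491 to 783 with a pseudocount of 0.1. A paired fit was added after the values were seen, with IT and TE of the 3 embryo groups as 3 pairs and the group as a block, which takes the groups as replicates of one part difference and leaves 2 residual degrees of freedom. In it limma called 0 of the 4 genes and 0 of 7280 tested at an adjusted p under 0.05, and 2 and 652 at an unadjusted p under 0.05. TE minus IT was 1.43 for MYL3 (0.21 to 2.64, adjusted p = 0.542) and 1.37 for WNT6 (0.31 to 2.43, adjusted p = 0.542), both higher in TE in 3 of 3 pairs, 0.60 for RENBP (-0.17 to 1.38, adjusted p = 0.575), higher in 3 of 3, and 0.96 for SH3YL1 (-0.52 to 2.45, adjusted p = 0.596), higher in 1 of 3. WNT6 passed the rule through TE alone in NT-LW and IV-D, and SH3YL1 did so in IV-D. The direction of those pairs was thus fixed by the choice of genes, and the estimates, intervals and p values of these genes are descriptions. No block over replicates of a condition could be fitted, since each has 1 library.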
